A study of Mus musculus with 8 samples.

Results

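The interferon receptors, the Janus kinases (JAKs) bound to them and their SOCS inhibitors were followed at the RNA level in macrophages in which the long noncoding RNA MAARS was lowered. The members were 10 genes taken by symbol from the deposited count table through GENCODE M21: the receptor chains Ifnar1, Ifnar2, Ifngr1 and Ifngr2, the kinases Jak1, Jak2 and Tyk2, and the inhibitors Socs1, Socs3 and Cish. All 10 were found among the 49315 genes of the table, and all 10 were among the 13051 genes that passed the filter on low counts. Bone marrow-derived macrophages (BMDMs), primary macrophages grown from C57BL/6 mouse marrow with the growth factor mMCSF at 10 ng/ml, were transfected with gapmeRs at 25 nM. A gapmeR is a short antisense oligonucleotide that directs RNase H to cut its target RNA. Ribodepleted total RNA was sequenced from 4 samples given negative control gapmeR (replicates 2, 5, 6 and 7) and 4 given gapmeR against MAARS (replicates 9, 11, 13 and 15). The Lipofectamine reagent, the gapmeR dose and the growth factor were shared by all 8 libraries, and neither untransfected cells nor cells given interferon were among them. The age and sex of the mice, and whether the samples came from separate cultures or mice, are not given in the sources used here, so the p-values measure the spread between these samples, which may be technical.

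Type I interferons bind a receptor made of the IFNAR1 and IFNAR2 chains, which carry TYK2 and JAK1, whereas interferon gamma binds IFNGR1 and IFNGR2, which carry JAK1 and JAK2. The kinases phosphorylate STAT proteins, which enter the nucleus and switch on interferon-stimulated genes. SOCS1, SOCS3 and CISH are made in response to STATs and close the loop, SOCS1 and SOCS3 by inhibiting JAKs and CISH mainly by blocking STAT5 docking at cytokine receptors. Macrophages are known for a low constant output of type I interferon that keeps this pathway primed.

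Between 19287279 and 24541205 counts fell on genes in each library, and every MAARS gapmeR library held more than every control library. MAARS (Gm14461), the targeted RNA, gave 238, 296, 240 and 249 counts with control gapmeR (replicates 2, 5, 6 and 7, the order used throughout) against 163, 161, 159 and 135 with MAARS gapmeR (replicates 9, 11, 13 and 15). The groups did not overlap, and normalized to library size it decreased by 48.1%. All 9 macrophage markers passed the filter, and CPM is the count scaled to library size. Adgre1, the gene of F4/80, had 1296 ± 65.3 and 1332 ± 36.4 CPM with control and MAARS gapmeR (SD, n = 4 each) and was not called, whereas 5 of the 9 were higher, among them Csf1r by 0.45 and Cd14 by 0.74 on the log2 scale, and 3 were lower. These were Fcgr1, from 808.2 ± 173.7 to 189.6 ± 42.7 CPM (SD, n = 4 each), Cd68 and Spi1, which fell by 2.09, 0.34 and 0.39 on the log2 scale. Summed over their lists, the other cell types lay between 1.08 and 2.54 CPM with control gapmeR and 1.39 and 1.80 CPM with MAARS gapmeR for the 6 dendritic cell markers, 52.6 to 162.2 and 53.1 to 82.8 CPM for the 7 granulocyte markers, 66.1 to 85.7 and 40.9 to 51.6 CPM for the 9 lymphocyte markers, of which Cd4 held nearly all, 1.02 to 1.51 and 0.662 to 1.15 CPM for the 4 mast cell and basophil markers, and 252.4 to 544.7 and 382.1 to 634.0 CPM for the 6 stromal and endothelial markers. The T cell gene Cd3e had at most 2 counts in any library. Col1a1 held most of the stromal and endothelial sum, at 335.3 ± 115.0 and 436.5 ± 105.7 CPM (SD, n = 4 each), and was not called. Kdr fell from 16.3 ± 1.79 to 5.60 ± 0.221 CPM (SD, n = 4 each), and the other 5 of these 6 markers were not called. All 5 proliferation markers were higher with MAARS gapmeR, at a summed level of 468.5 to 557.1 against 193.6 to 386.9 CPM. Beside the marker counts of this paragraph, 21.3% of all genes tested were called higher and 24% lower, at the threshold given below. The part of proliferation or of other cell types in the results below was not tested.

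Of the 10 members, 5 differed between the groups at a threshold of 0.05 on the adjusted p of the quasi-likelihood test in edgeR, 1 of them higher (Ifnar1) and 4 lower (Socs1, Jak2, Ifngr2 and Jak1) after MAARS knockdown. Over all genes tested 45.4% were called, 21.3% higher and 24% lower, so the members were called at about the rate of the background. In 4 of 10 members the 2 groups of libraries did not overlap in CPM, against 42.1% of all genes tested. The median log2 fold change of the members was -0.10, and that of all genes tested was 0.01. In bulk RNA, fewer cells of a type and less RNA per cell cannot be told apart, and this holds for each difference below. CPM values here are normalized with TMM factors, and fold changes are log2 of MAARS gapmeR over control gapmeR.

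**Figure D1:**
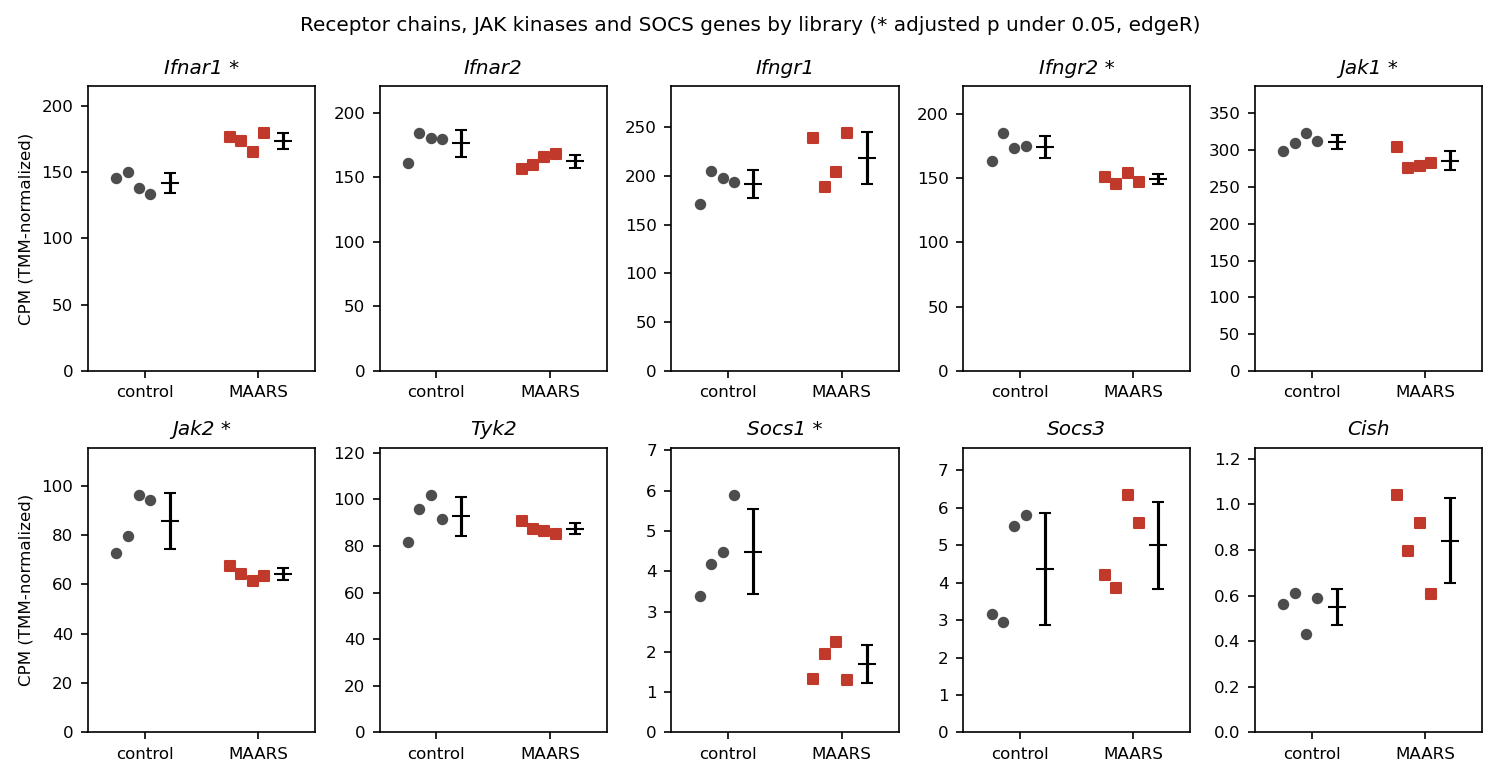
TMM-normalized CPM of each member in each library, with 4 control gapmeR libraries (dark circles) and 4 MAARS gapmeR libraries (red squares) per panel and the mean ± SD beside the points. Socs1, Ifnar1, Ifngr2 and Jak2 separate the groups completely, whereas the other 6 members overlap.

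Among the receptor chains, one chain of each receptor was called, in opposite directions. Ifnar1 encodes the TYK2-bound chain of the type I receptor and is annotated on chromosome 16 at 91485238 to 91507441 (GRCm38, plus strand, ENSMUSG00000022967). It stood at 145.4, 150.6, 137.7 and 133.2 CPM with control gapmeR and at 176.8, 173.5, 165.2 and 179.3 CPM with MAARS gapmeR. Every MAARS gapmeR library therefore lay above every control library, from 2547 or more counts in each. Ifnar1 rose by 0.29 ± 0.0496 (standard error) on the log2 scale, or by 22.6% (adjusted p = 0.000649 from edgeR). Ifnar2, which encodes the chain with high affinity for type I interferon that carries JAK1, is found on the same strand upstream, at 91372783 to 91405589 (ENSMUSG00000022971). Its level was 161.2, 184.0, 180.2 and 180.0 CPM with control gapmeR and 156.8, 159.4, 165.7 and 167.9 CPM with MAARS gapmeR. Control replicate 2 sat within the MAARS gapmeR range, and the other 3 controls lay above it. The difference did not pass the test (log2 fold change -0.12, 95% interval -0.23 to -0.01, adjusted p = 0.0752 from edgeR), and without control replicate 2 it did (log2 fold change -0.15, adjusted p = 0.0167 from edgeR). A neighbouring gene model on the same strand, Gm21970, shares 9.46% of the exonic bases of Ifnar2, so its counts may include or lack such reads.

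Of the interferon gamma receptor, Ifngr2 was lower and Ifngr1 was not called. Ifngr1, on chromosome 10 from 19591949 to 19610229 (plus strand, ENSMUSG00000020009), encodes the chain that binds the ligand and carries JAK1. It read 170.9, 204.8, 198.0 and 193.7 CPM with control gapmeR and 238.9, 188.4, 204.4 and 243.6 CPM with MAARS gapmeR. Replicates 9 and 15 stood above all controls, while replicates 11 and 13 fell among them. The change was not called (log2 fold change 0.19, 95% interval 0.00 to 0.38, adjusted p = 0.0895 from edgeR), and it was called without MAARS gapmeR replicate 11 (log2 fold change 0.26, adjusted p = 0.0248 from edgeR). Ifngr2, which encodes the JAK2-bound chain, lies on chromosome 16 from 91547072 to 91565623 (plus strand, ENSMUSG00000022965). Its values were 163.1, 184.5, 173.3 and 174.7 CPM in the controls and 151.0, 145.2, 154.1 and 146.7 CPM after MAARS knockdown. The groups did not overlap, and Ifngr2 fell by 0.22 on the log2 scale (standard error 0.0469, adjusted p = 0.00279 from edgeR), so its level decreased by 14.2%. Ifnar2, Ifnar1 and Ifngr2 are neighbours in a receptor cluster on chromosome 16 that also holds Il10rb, a chain of the interleukin-10 receptor. Il10rb, starting 575 nt beyond the end of Ifnar2, had 290.7 ± 11.3 and 272.0 ± 7.23 CPM (SD, n = 4 each) and was not called (adjusted p = 0.0975 from edgeR).

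The 3 kinases had log2 fold changes below 0, and that of Jak2 was the farthest from it. Jak2, on chromosome 19 from 29251828 to 29313080 (plus strand, ENSMUSG00000024789), serves the interferon gamma receptor and the receptors of several growth factors. It had 72.6, 79.5, 96.2 and 94.0 CPM with control gapmeR and 67.5, 64.1, 61.3 and 63.5 CPM with MAARS gapmeR. No MAARS gapmeR library reached the lowest control, and the controls were spread more widely, with a coefficient of variation of 13.3% against 3.97%. Jak2 fell by 0.42 on the log2 scale (standard error 0.083, adjusted p = 0.00189 from edgeR), so its level decreased by 25.0%. Jak1, the kinase shared by both interferon receptors, lies on the minus strand of chromosome 4 from 101152367 to 101265282 (ENSMUSG00000028530) and gave the most counts of the 10, from 5826 to 6945 per library. It stood at 298.3, 310.2, 322.6 and 312.4 CPM in the controls and at 304.8, 276.3, 278.7 and 281.9 CPM after MAARS knockdown. Replicate 9 reached into the control range, and its fall was the last of the 5919 genes called, ranked by p (-0.12 ± 0.0468, standard error, on the log2 scale, adjusted p = 0.04999 from edgeR). It passed 0.05 in 6 of 15 alternatives, with adjusted p from 0.0181 to 0.287 from edgeR, DESeq2 or limma, and with RLE in place of TMM factors it was 0.0595. Tyk2, on the minus strand of chromosome 9 from 21104068 to 21131243 (ENSMUSG00000032175), had 81.9, 95.9, 101.8 and 91.3 CPM and then 90.8, 87.1, 86.6 and 85.2 CPM. The control range covered that of the MAARS gapmeR libraries, and no difference was detected (log2 fold change -0.09, 95% interval -0.22 to 0.05, adjusted p = 0.287 from edgeR). An antisense gene model, 1700084C06Rik, covers 8.07% of the exonic bases of Tyk2, and without a known strand setting its reads cannot be told apart there.

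**Figure D2:**
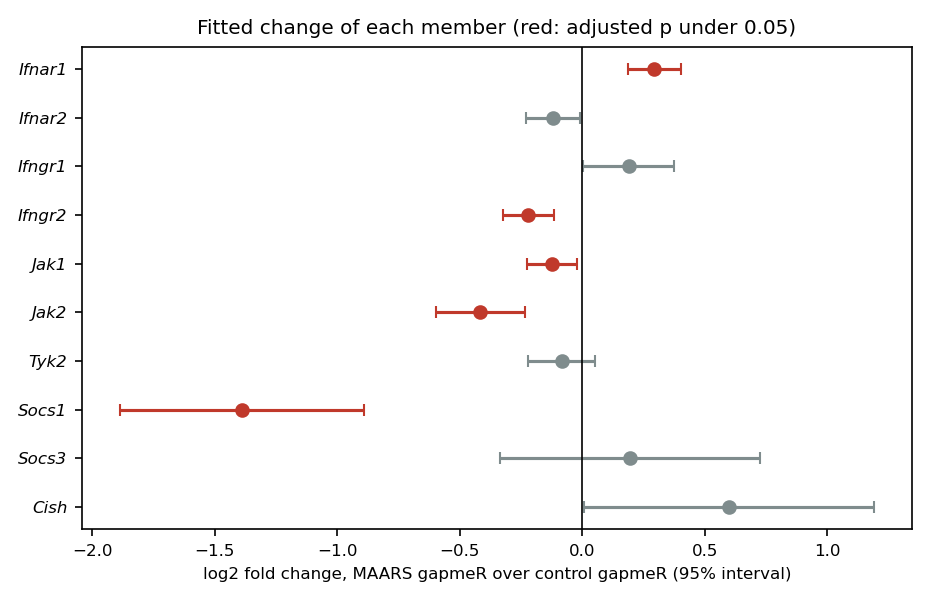
Log2 fold change of MAARS gapmeR over control gapmeR for the 10 members from edgeR, with bars for the 95% interval and red for adjusted p under 0.05. Socs1 sits at -1.39, farthest from 0, while the receptor chains and kinases lie between -0.42 and 0.29.

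The SOCS genes were the scarcest members and differed most from one another. Their promoters are shown because the 3 genes answer to STATs, and Socs1 carries another motif there than Socs3 and Cish. The sequences are from RefSeq on GRCm38.p6, 5′ to 3′ on the strand of each gene, and run from 250 bases before the start to the base before it for Socs1 (chr16:10785537-10785786, minus strand) and Socs3 (chr11:117969367-117969616, minus strand), and to base 20 after it for Cish (chr9:107296409-107296678, plus strand). Capitals mark matches to the gamma-activated site bound by STAT dimers (GAS, TTCNNNGAA, the same on both strands) or to the interferon-stimulated response element (ISRE, GAAANNGAAA or TTTCNNTTTC on the other strand).
Socs1: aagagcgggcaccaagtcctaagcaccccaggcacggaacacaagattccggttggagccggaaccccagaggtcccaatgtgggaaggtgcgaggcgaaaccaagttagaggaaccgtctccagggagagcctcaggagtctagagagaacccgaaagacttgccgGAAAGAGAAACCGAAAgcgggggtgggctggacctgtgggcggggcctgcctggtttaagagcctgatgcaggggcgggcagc
Socs3: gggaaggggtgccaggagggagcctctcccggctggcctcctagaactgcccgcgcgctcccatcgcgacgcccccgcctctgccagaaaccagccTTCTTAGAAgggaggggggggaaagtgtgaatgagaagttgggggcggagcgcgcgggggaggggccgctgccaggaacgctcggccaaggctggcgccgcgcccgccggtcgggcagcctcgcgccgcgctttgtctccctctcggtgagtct
Cish: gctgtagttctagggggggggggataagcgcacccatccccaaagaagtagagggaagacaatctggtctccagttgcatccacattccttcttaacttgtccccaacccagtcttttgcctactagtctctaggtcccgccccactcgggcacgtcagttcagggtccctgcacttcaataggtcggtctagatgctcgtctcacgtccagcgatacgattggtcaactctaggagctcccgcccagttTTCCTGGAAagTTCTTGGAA
Socs1 held overlapping ISRE matches at -83 to -74 (GAAAGAGAAA) and -77 to -68 (GAAACCGAAA) from its start and no GAS. Socs3 held a single GAS at -154 to -146 (TTCTTAGAA), and Cish held GAS at bases 1 to 9 (TTCCTGGAA) and 12 to 20 (TTCTTGGAA). In the same windows of 300 bases, 250 before and 50 after the start, Ifnar1 and Ifnar2 also held a GAS, and the other 5 members held neither motif. A GAS stood in 8.30% and an ISRE in 3.44% of the 32851 promoters of the table. Positions here count from the RefSeq start of each gene. For Socs3 and Cish this start lies inside the GENCODE span given below, downstream of the GENCODE start. For Ifnar1 it lies shortly before the GENCODE start. A match is a run of letters and says nothing of binding in these cells.

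Socs1, on chromosome 16 from 10782240 to 10785536 (ENSMUSG00000038037), had 66, 82, 83 and 120 counts with control gapmeR and 28, 49, 49 and 30 with MAARS gapmeR. In CPM this was 3.38, 4.18, 4.49 and 5.89 and then 1.32, 1.95, 2.25 and 1.30. Every control library lay above every MAARS gapmeR library, although the spread within groups was wide, with coefficients of variation of 23.4% and 27.6%. Socs1, the strongest inhibitor of JAK1, JAK2 and TYK2 among the SOCS proteins, fell by 1.39 on the log2 scale (standard error 0.227, adjusted p = 0.000515 from edgeR), so its level decreased by 61.8%. Socs3, on chromosome 11 from 117966079 to 117970047 (minus strand, ENSMUSG00000053113), restrains signals through the interleukin-6 receptor chain gp130. Its counts were 62, 58, 102 and 118 with control gapmeR and 89, 97, 138 and 129 with MAARS gapmeR, or 3.17, 2.96, 5.52 and 5.80 and then 4.21, 3.86, 6.34 and 5.59 CPM. Controls 6 and 7 stood well above controls 2 and 5, and the MAARS gapmeR libraries fell across the same range. No difference was detectable at this depth (log2 fold change 0.20, 95% interval -0.33 to 0.73, adjusted p = 0.536 from edgeR). The value rested on single libraries, since it was 0.041 without control replicate 5, 0.073 without control replicate 2 and 0.060 without MAARS gapmeR replicate 13, and 0.37 without control replicate 7, 0.32 without control replicate 6 and 0.31 without MAARS gapmeR replicate 11. Cish, on chromosome 9 from 107296026 to 107302784 (plus strand, ENSMUSG00000032578), was close to the filter, with 11, 12, 8 and 12 counts in the controls and 22, 20, 20 and 14 after MAARS knockdown. Its level of 0.549 ± 0.0801 and 0.841 ± 0.185 CPM (SD, n = 4 each) differed by 0.60 on the log2 scale (95% interval 0.01 to 1.19), which was not called (adjusted p = 0.0913 from edgeR). Gene models on the opposite strand cover 11.5% of its exonic bases.

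Ratios of paired members within a library do not depend on how libraries are scaled to each other, and 7 such ratios were compared with a two-sided exact permutation test, which has 70 ways to divide the libraries. The log2 ratio of Ifnar1 to Ifnar2 counts per kilobase of exon was -1.15 ± 0.126 with control gapmeR and -0.74 ± 0.0741 with MAARS gapmeR (SD, n = 4 each), a rise of 0.41 (exact p = 0.0286, adjusted over the 7 ratios 0.04). That of Ifngr1 to Ifngr2 went from 0.54 ± 0.0522 to 0.95 ± 0.179 (SD, n = 4 each), a rise of 0.40 (exact p = 0.0286, adjusted 0.04). In each receptor, then, the balance of the chains shifted without overlap between the groups. For the kinases, Jak1 to Jak2 rose by 0.28 and Jak2 to Tyk2 fell by 0.33 on the log2 scale (exact permutation p = 0.0286, adjusted 0.04 for each), whereas the ratio of Jak1 to Tyk2 overlapped between groups (difference -0.04, exact permutation p = 0.457, adjusted 0.457). Socs1 and Socs3 were near parity in the controls at a log2 ratio of 0.07 ± 0.327, and the ratio was -1.57 ± 0.463 after MAARS knockdown (SD, n = 4 each; exact p = 0.0286, adjusted 0.04). The ratio of Cish to Socs3 overlapped between the groups (exact permutation p = 0.429, adjusted 0.457). The p of 0.0286 is the smallest that 4 against 4 libraries can give. These ratios reuse the values of the members above. Jak1 to Jak2 and Jak2 to Tyk2 both carry the fall of Jak2, and Socs1 to Socs3 carries that of Socs1. How often ratios of other gene pairs separate the groups was not computed, and 42.1% of single genes tested did so in CPM.

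**Figure D3:**
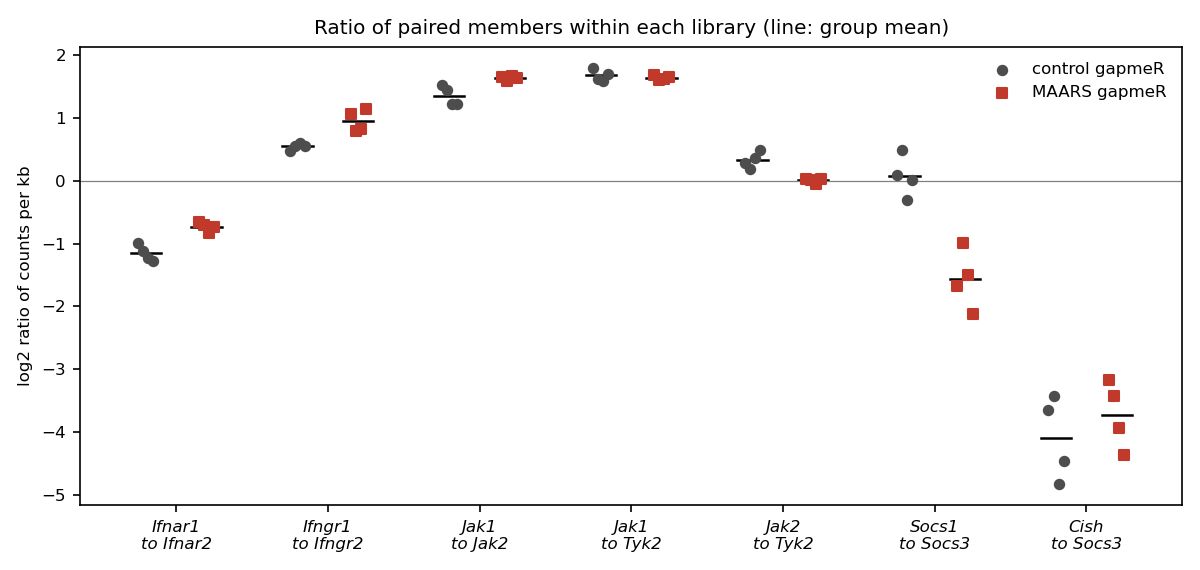
Log2 ratio of counts per kilobase for 7 pairs of members in each library, with dark circles for control gapmeR, red squares for MAARS gapmeR and a line at each group mean. The groups are apart for Ifnar1 to Ifnar2, Ifngr1 to Ifngr2, Jak1 to Jak2, Jak2 to Tyk2 and Socs1 to Socs3, and overlap for Jak1 to Tyk2 and Cish to Socs3.

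Counted with the fourth family member Jak3, which serves receptors with the common gamma chain, the JAK transcripts per kilobase of exon divided with control gapmeR into 51.0% ± 2.14 Jak1, 20.1% ± 1.39 Jak2, 15.97% ± 0.670 Tyk2 and 12.99% ± 0.835 Jak3 (SD, n = 4). With MAARS gapmeR the shares were 53.6% ± 0.644, 17.3% ± 0.273, 17.3% ± 0.397 and 11.8% ± 0.746 (SD, n = 4). The share of Jak2 was lower and that of Tyk2 higher without overlap (exact permutation p = 0.0286 each), but adjusted over the 4 shares neither passed 0.05 (exact permutation test, adjusted p = 0.0571 each).

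Per kilobase of exon, the receptor chains and Jak1 were the most abundant members and the SOCS genes the least. With control gapmeR the level was 67.4 ± 5.16 for Ifngr1, 53.0 ± 3.08 for Ifnar2, 46.2 ± 2.33 for Ifngr2, 43.0 ± 1.38 for Jak1 and 23.9 ± 1.30 CPM per kilobase for Ifnar1 (SD, n = 4). Below these stood Jak2 at 17.0 ± 2.27, Tyk2 at 13.5 ± 1.23, Socs1 at 1.54 ± 0.361, Socs3 at 1.51 ± 0.520 and Cish at 0.0856 ± 0.0125 CPM per kilobase (SD, n = 4). Neighbours in this order whose ranges overlapped were Ifnar2 and Ifngr2, Ifngr2 and Jak1, Jak2 and Tyk2, and Socs1 and Socs3. With MAARS gapmeR the order differed in that Socs3 (1.73 ± 0.403) stood above Socs1 (0.587 ± 0.162 CPM per kilobase, SD, n = 4) without overlap, and Jak2 (12.7 ± 0.506) and Tyk2 (12.7 ± 0.351) came level. When the length of a single coding transcript was used in place of all exons, an alternative added after seeing the data, Jak1 moved to second place at 63.4 ± 2.03 and Tyk2 stood above Jak2, at 19.2 ± 1.75 against 17.0 ± 2.27 CPM per kilobase (control gapmeR, SD, n = 4). In that measure the MAARS gapmeR libraries placed Ifnar1 above Ifngr2, at 44.4 ± 1.56 against 40.3 ± 1.1 CPM per kilobase (SD, n = 4), the reverse of the controls. They also placed Tyk2 above Jak2 without overlap, at 18.1 ± 0.499 against 12.7 ± 0.506 CPM per kilobase (SD, n = 4). Jak2 and Tyk2 thus came level after MAARS knockdown only when all exons were used for the length. By transcript length, Socs3 already stood above Socs1 in the controls with overlapping ranges, at 1.71 ± 0.589 against 1.54 ± 0.361 CPM per kilobase (SD, n = 4).

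Transcripts of the ligands themselves were close to absent in these libraries, and interferon protein was not measured in them. Of 21 interferon genes listed, among them Ifnb1, the Ifna family and Ifng, 16 had no count in any library and none exceeded 2 counts. A count of 0 allows up to 3 counts, which is 0.119 to 0.162 CPM depending on the library and covers counting error only, and near-identical copies of the Ifna genes may lose reads in the counting. The other JAK and SOCS genes moved both ways, with 3 of 6 called higher and 2 lower (1 lower with upper-quartile factors) against the 21.3% and 24% of all genes. Socs2, an inhibitor of growth hormone signals, stood at 1.28 ± 0.379 and 2.43 ± 0.661 CPM (SD, n = 4 each) and rose by 0.92 on the log2 scale (adjusted p = 0.0151 from edgeR). Socs5 and Socs6 rose by 0.25 and 0.21, and Jak3 and Socs7 fell by 0.34 and 0.22 on the log2 scale. With 1 library left out, Socs5 was no longer called in 4 of 8 fits (without control replicates 2 or 6 or MAARS gapmeR replicates 11 or 13, adjusted p up to 0.0816 from edgeR) and Socs6 in 5 of 8 (without control replicates 2 or 7 or MAARS gapmeR replicates 9, 13 or 15, adjusted p up to 0.134 from edgeR). Socs7 was not called with upper-quartile factors (adjusted p = 0.0509 from edgeR). Socs4, at -0.22 on that scale, was not called (adjusted p = 0.0579 from edgeR). The SOCS proteins recruit a ubiquitin ligase through their SOCS box. Of 6 genes listed as its partners 3 were lower and none higher, beside 24% and 21.3% of all genes. Cul2, Eloc and Rbx1 fell by 0.38, 0.29 and 0.23 on the log2 scale. Cul5, the usual cullin of SOCS proteins, had 54.2 ± 1.29 and 52.5 ± 0.609 CPM (SD, n = 4 each). Elob had 89.2 ± 3.07 and 91.0 ± 3.63 CPM, and Rnf7 68.5 ± 5.30 and 75.1 ± 0.852 CPM (SD, n = 4 each). Cul5, Elob and Rnf7 were not called, so that 3 of 6 partners were called where 45.4% of all genes tested were. With upper-quartile factors the log2 fold change of Cul5 turned from -0.047 to 0.015, and 1 partner was called higher.

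Among the 8 genes for STATs and IRF9, which act downstream of the kinases, 5 were called lower and 1 higher, with a median log2 fold change of -0.28, where 24% of all genes tested were lower and 21.3% higher. Stat2, which serves type I interferon signals, had 405.0 ± 50.9 and 141.5 ± 30.6 CPM (SD, n = 4 each) and fell by 1.52 on the log2 scale (adjusted p = 1.12e-05 from edgeR). Irf9, its DNA-binding partner in the ISGF3 complex, fell by 0.71 and Stat3 fell by 0.38, whereas Stat5b rose by 0.27 on the log2 scale. All 25 interferon-stimulated genes of the list were lower, with a median log2 fold change of -2.78, and Bst2, Mx2 and Herc6 fell by 1.99, 2.64 and 1.81 on the log2 scale. Of the 24 other receptor chains that use JAKs, 20 were tested, and 9 were lower (7 with upper-quartile factors) and 4 higher, with a median of -0.13, beside the same 24% and 21.3% of all genes. Il12rb1, a chain of the interleukin-12 receptor, fell by 2.02, Il2rg, the common gamma chain, by 1.35 and Il13ra1 by 1.16, whereas Epor, the erythropoietin receptor, rose by 1.14 on the log2 scale. Of 13 other negative regulators 4 were lower and 3 higher, with a median of -0.14, so that 7 of 13 were called where 45.4% of all genes were. Usp18, which displaces JAK1 from IFNAR2, had 95.2 ± 11.3 and 19.1 ± 8.35 CPM (SD, n = 4 each), having fallen furthest in that list, at -2.32 on the log2 scale (adjusted p = 2.45e-05 from edgeR). The phosphatase gene Ptpn6 fell by 0.55 and the ubiquitin ligase gene Cbl rose by 0.35 on the log2 scale.

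**Figure D4:**
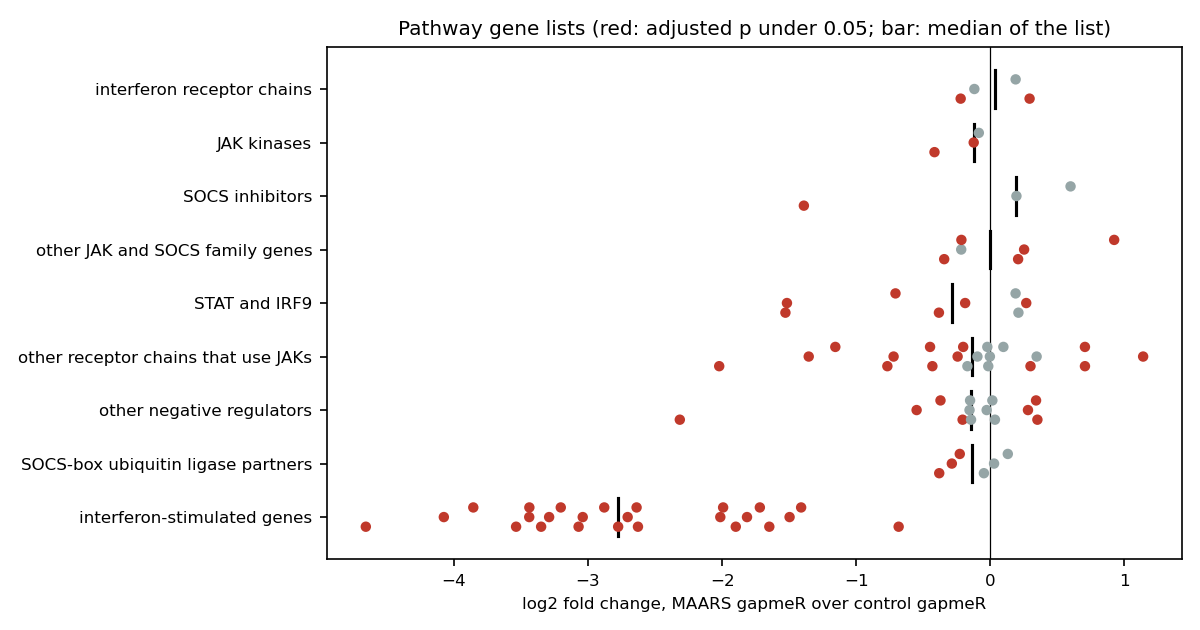
Log2 fold change of MAARS gapmeR over control gapmeR for every tested gene of 9 lists, one point a gene, red where the adjusted p is under 0.05 and with a bar at the median of the list. The medians of the first 8 lists lie between -0.28 and 0.20, and that of the interferon-stimulated genes lies at -2.78.

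Set beside the interferon-stimulated genes library by library, the members fell into different patterns. The mean log2 CPM of the 25 interferon-stimulated genes was 7.29, 7.58, 7.95 and 7.85 in the controls against 4.28, 5.12, 5.58 and 4.71 in the MAARS gapmeR libraries. Within the MAARS gapmeR group Socs1 was higher in replicates 11 and 13, the libraries with more of these transcripts, and lower in 9 and 15. Within the controls Socs1 was lowest in replicate 2, which also had the lowest mean. Its highest control value was in replicate 7, whereas the mean was highest in replicate 6. Jak2 was higher in control replicates 6 and 7 than in 2 and 5, as was the mean of the interferon-stimulated genes, but in the MAARS gapmeR group it was lowest in replicate 13, where that mean was highest. Ifnar1 was higher in control replicates 2 and 5 than in 6 and 7. In the MAARS gapmeR group Ifnar1 was lowest in replicate 13, where the mean of the interferon-stimulated genes was highest. It was highest there in replicate 15, whereas that mean was lowest in replicate 9. The proliferation markers had a mean log2 CPM of 5.96, 5.46, 5.0 and 5.13 in the controls and 6.2, 6.47, 6.33 and 6.30 after MAARS knockdown. With 4 libraries a group no correlation was computed.

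**Figure D5:**
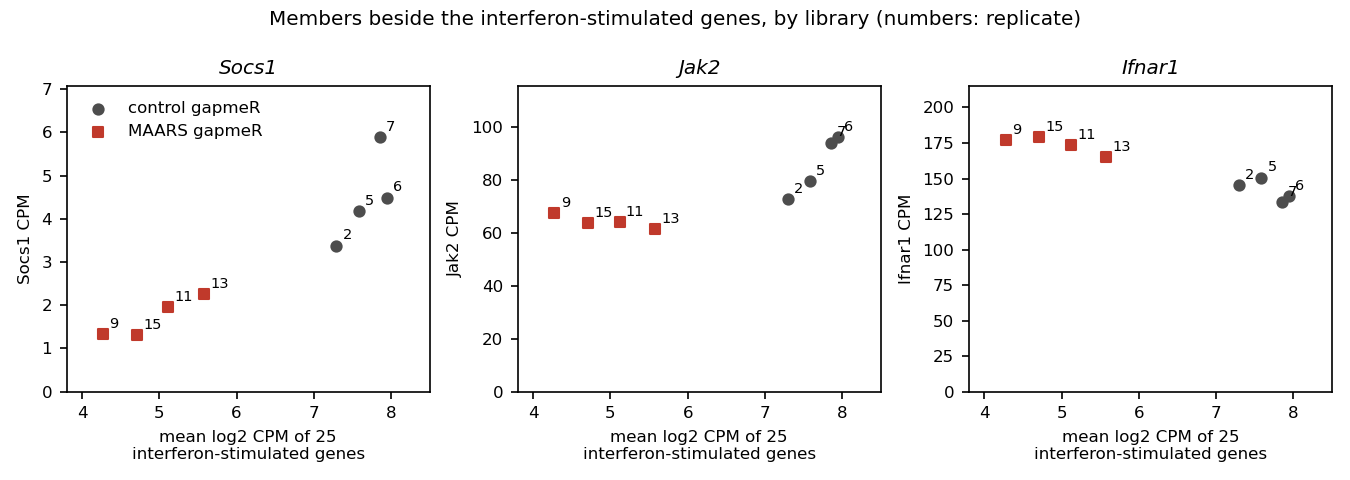
CPM of Socs1, Jak2 and Ifnar1 against the mean log2 CPM of 25 interferon-stimulated genes, one point a library labelled with its replicate number (dark circles control gapmeR, red squares MAARS gapmeR). The groups are apart on both axes in each panel, and within the MAARS gapmeR group Socs1 is higher in replicates 11 and 13 than in 9 and 15.

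The genes with the profile nearest to a member were sought for the 3 members with the smallest p, by the Euclidean distance over 8 libraries between log2 CPM values centred on the mean of each gene. For Socs1 these were 9130208D14Rik, Pla2r1 and 9330175E14Rik, at distances of 0.363, 0.376 and 0.404 against a median of 2.16 over all genes tested. For Ifnar1 they included Cdk16 and Celf1 (0.0485 and 0.0639 against 0.688), and for Jak2 they were Kansl3, Sbno2 and Psme4 (0.147, 0.167 and 0.18 against 0.839). The libraries share their depth and their groups across all genes, and a small distance here rests largely on the difference between the groups.

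HuR, an RNA-binding protein that the study examines together with MAARS, binds U-rich and AU-rich elements, so the annotated 3′ UTR of a single coding transcript of each member was searched for AUUUA. Ifngr2 held 6, Jak1 and Socs3 4 each, Cish 3, Jak2 2, and Ifnar1 and Tyk2 1 each, while Ifnar2, Ifngr1 and Socs1 held none, and the median of genes tested was 1. In density this was 2.29 per kilobase for Ifngr2, 3.55 for Jak1, 2.71 for Socs3, 2.76 for Cish, 1.62 for Jak2, 1.02 for Tyk2 and 0.493 for Ifnar1, against a median of 1.23. The longer element UUAUUUAUU was found in Cish only among the 10 and in 7.24% of the 11782 genes tested that have an annotated 3′ UTR. Of the 5 members called, Jak1, Ifngr2 and Jak2 were above the median density and Ifnar1 and Socs1 below it. Of those not called, Socs3 and Cish were above it and Ifnar2, Ifngr1 and Tyk2 below it. U-rich elements without AUUUA were not searched for, and no binding of HuR was measured in these libraries.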

How the data were processed

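Per the labels and the study's methods, the authors trimmed the reads (Trimmomatic 0.36), aligned them with STAR 2.5.2b to GRCm38 and used featureCounts (Subread 1.5.2) for the count of each gene. The deposited values are these raw counts, not normalized, and the strand setting and the treatment of reads with several places are not given in the sources used here. All 8 columns were used.

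Counts were analysed with edgeR 4.0.16 in R 4.3.3: filterByExpr (minimum count 10, minimum total 15), TMM factors, glmQLFit and glmQLFTest, with p-values adjusted by Benjamini-Hochberg across all 13051 genes and a threshold of 0.05. Standard errors and 95% intervals were derived from the F statistic and its degrees of freedom. The procedure was checked on simulated counts in which few genes changed, as many higher as lower. Changes as widespread as those in these data were not simulated. Symbols, positions, exon lengths and 3′ UTRs came from GENCODE M21, which held 99.3% of the genes. Ratios and shares were compared by exact permutation tests. The alternatives were RLE and upper-quartile factors, DESeq2 1.42.0, limma-voom 3.58.1, a robust prior, no filter or one on a mean of 10 counts and each library left out. Pairs of replicates differed by a chi-square of 4.26 to 15.4 per gene, so none was a duplicate. The members and lists were chosen with earlier results of these data known, and lists are described by counts and medians with no set test. Named were all members, MAARS, genes of the lists (always those with the 3 smallest p and the highest per kilobase in the lists of other pathway genes for which values are given), the nearest gene tested on either side and the nearest profiles. A few genes that this rule names are not reported here.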

Additional observations from a re-analysis of the deposited data

Results flagged for a closer look

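Of 146 groups of 4 libraries examined for the members, the other named genes, the ratios and the shares, 2 held a library far from the other 3, where chance gives about 5 in 100. Socs7 stood at 33.9 CPM in MAARS gapmeR replicate 11 against 36.2, 36.5 and 36.5 CPM in the other MAARS gapmeR libraries. Cd14 stood at 187.3 CPM in MAARS gapmeR replicate 15 against 158.0, 158.0 and 161.1 CPM in the other MAARS gapmeR libraries. None of the 10 members held such a library.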

How the results depend on the processing

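Each of the 10 members kept its direction in all 15 alternatives, and Ifnar1, Ifngr2, Jak2 and Socs1 stayed called in all 15, with log2 fold changes of 0.26 to 0.36, -0.25 to -0.16, -0.48 to -0.35 and -1.55 to -1.23. Socs3 and Cish were called in none of the 15, with 0.041 to 0.37 and 0.48 to 0.73. Jak1 was no longer called with RLE factors (-0.12, adjusted p = 0.0595), upper-quartile factors (-0.061, adjusted p = 0.287) or no filter (-0.13, adjusted p = 0.101, all from edgeR), and over the fits without one library it ran from -0.16 to -0.11, uncalled in 6 of 8. Ifngr1 became called with upper-quartile factors (0.25, adjusted p = 0.0291) and no filter (0.18, adjusted p = 0.0495, both from edgeR), which raised the number of members higher from 1 to 2, and without one library it ran from 0.13 to 0.26. Without one library Ifnar2 ran from -0.15 to -0.10 and Tyk2 from -0.14 to -0.042, called once each, without control replicate 2, and 1 to 2 members were called higher. Cul5 turned to 0.015 with upper-quartile factors, which also left 1 of the other JAK and SOCS genes lower, against 2, and called 1 SOCS-box partner higher, against 0. Of all genes called, 60.4% were higher with upper-quartile factors against 47.0% with TMM factors. The causes were not tested. Without one library the exact test of 3 against 4 cannot go below 0.0571, so ratios and shares were then compared by value, and each of the 11 moved by less than 1 pooled SD. No paired analysis was possible because the groups share no replicate numbers. Scarce members limit precision: the intervals of Socs3 and Cish are wide, and differences inside them were not detectable at this depth.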

Other observations

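Around the members, 18 neighbouring genes that are no members were tested, the nearest on either side, of which 5 were lower, 3 higher and 10 not called, close to the 45.4% called over all genes tested. Icam1, an adhesion molecule gene next to Tyk2 among the genes tested, fell from 100.3 ± 16.2 to 49.4 ± 3.01 CPM (SD, n = 4 each; log2 fold change -1.02, adjusted p = 1.64e-05 from edgeR), while Cdc37, a chaperone partner of kinases 1979 nt from Tyk2 on its other side, had 159.1 ± 1.86 and 149.0 ± 2.28 CPM (adjusted p = 0.0581 from edgeR). The nearest genes tested around Ifngr1 were far from it, Tnfaip3 at 576292 nt and Pex7 at 243671 nt on the other side. Tnfaip3, an inhibitor of NF-kappaB, fell by 0.65 and Pex7 rose by 0.58 on the log2 scale. Among the genes tested, Insl6 beside Jak2 fell by 0.72, Pgs1 beside Socs3 by 0.40 and Mapkapk3 beside Cish by 0.26 on the log2 scale. Tha1, on the other side of Socs3, rose by 0.50 on that scale.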
